A study of Mus musculus with 8 samples.

Results

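Immediate early response genes are the genes that a cell transcribes first after a stimulus, before any new protein is made. The 10 studied here were Ier2, Ier3, Fos, Fosb, Jun, Junb, Egr1, Atf3, Dusp1 and Dnajb1. They were chosen by name, with earlier results of these data known. Every probe set that the platform annotation assigns to one of them was used. This gave 12 probe sets of 22626 and 10 genes of 12393. All 10 genes had a probe set, with 2 each for Jun and Dnajb1 and 1 for each of the others. Klf2, which is itself quickly induced in several cell types, was set beside them on each array.

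Growth factors, cytokines, stress and mechanical force switch these genes on through kinase cascades that end on factors already bound at their promoters, such as the serum response factor and CREB. Fos, Fosb, Jun and Junb encode subunits of the dimeric AP-1 transcription factor, and Egr1 and Atf3 encode further DNA-binding factors. Dusp1 encodes a phosphatase that switches the kinases off again. In dissociated tissue the same genes are known as markers of handling and stress.

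The cells were primitive erythroid precursors, the first and nucleated red cell lineage, taken from yolk sacs of mice at embryonic day 9.5. The tested arrays were 4 biological replicates labelled KLF2-/- (11, 12, 13 and 14), and they were compared with 4 wild-type FVB/N replicates (3, 5, 7 and 9). No strain is stated for the KLF2 line, and the samples' labels disagree with the study's design text on whether the dams of the KLF2-/- embryos were homozygous or heterozygous. In both groups laser capture took the cells out of 8 micrometre frozen sections after staining, and each replicate pooled between 2 and 4 yolk sacs from 2 litters. KLF2-/- replicates held 3600 to 4400 cells from 30 to 80 slides and gave 10 to 20 ng of RNA, and wild-type replicates came from 12 to 50 slides and gave 10 to 39 ng. Values are log2 expression, 1 per probe set and array, on a scale that ran from 2.47 to 14.17 with array medians of 5.08 to 5.20, and a difference of 1 is a doubling.

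The captures held other cells' RNA beside erythroid RNA. The erythroid markers were bright, with a mean log2 level over 14 of 15 listed genes of 8.78 to 10.49 in KLF2-/- arrays and 9.32 to 10.35 in wild-type arrays. Visceral endoderm markers (13 of 14 genes) had a mean log2 level of 7.25 to 10.45 in KLF2-/- arrays and 9.49 to 10.05 in wild-type arrays. For mesenchyme and mesothelium markers (12 genes) it was 7.39 to 8.66 in KLF2-/- arrays and 7.87 to 8.27 in wild-type arrays. That mean was highest on KLF2-/- array 12 (8.66, against 8.52 on array 13), and so was the endothelial mean (6.67, against 6.36). KLF2-/- array 13 had the lowest erythroid mean (8.78) and the highest visceral endoderm mean (10.45) of the 8 arrays. Its macrophage mean over 10 genes (5.71, against 5.34 to 5.58 in the other KLF2-/- arrays and 5.01 to 5.31 in wild type) was the highest too. Not every gene of that list shared this, and 6 of the 10 had a mean below the median of all probe sets. Csf1r stood at 9.52 on array 13, against 7.43 to 8.05 on the others. Mrc1, at 7.15 there, was higher on KLF2-/- arrays 11 (7.96) and 12 (7.99). Fewer cells of a type and less RNA per cell cannot be told apart in such samples. Klf2 was not lower in the arrays labelled KLF2-/-, and where its probe set lies against the deletion is not stated in the sources, so the groups are named by their labels.

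The stretches upstream of 4 of these genes and of Klf2 are printed here. They show what precedes genes that were high on the same array (Atf3, Jun, Fos and Klf2). Ier3 was high on that array too and is not printed. Dusp1 is printed as the 1 gene of the 8 searched with a cyclic AMP response element. They are the 250 bases before the transcription start from RefSeq, build GRCm38.p6, read 5′ to 3′ along the gene. Capitals mark matches to CACCC, the box that KLF factors bind (GGGTG on the other strand), to the TATA box TATAAA, and to the cyclic AMP response element TGACGTCA. In Dusp1 that element overlaps a CACCC match.
Atf3 (chr1:191183334-191183583, minus strand): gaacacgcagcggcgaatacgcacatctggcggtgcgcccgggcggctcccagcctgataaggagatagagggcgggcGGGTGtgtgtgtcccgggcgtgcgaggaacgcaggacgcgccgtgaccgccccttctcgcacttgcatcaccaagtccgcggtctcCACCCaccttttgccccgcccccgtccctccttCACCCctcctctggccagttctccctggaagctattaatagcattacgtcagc
Jun (chr4:95052223-95052472, minus strand): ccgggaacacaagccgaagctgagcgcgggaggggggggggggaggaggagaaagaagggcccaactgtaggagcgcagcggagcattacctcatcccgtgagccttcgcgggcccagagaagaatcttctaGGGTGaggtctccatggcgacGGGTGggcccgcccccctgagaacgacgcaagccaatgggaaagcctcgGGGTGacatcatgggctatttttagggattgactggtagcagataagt
Fos (chr12:85473640-85473889, plus strand): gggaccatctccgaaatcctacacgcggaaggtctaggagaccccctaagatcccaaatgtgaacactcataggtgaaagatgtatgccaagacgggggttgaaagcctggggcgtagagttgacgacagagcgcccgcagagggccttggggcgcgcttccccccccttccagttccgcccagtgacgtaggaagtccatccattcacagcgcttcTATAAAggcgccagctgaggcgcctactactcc
Dusp1 (chr17:26508473-26508722, minus strand): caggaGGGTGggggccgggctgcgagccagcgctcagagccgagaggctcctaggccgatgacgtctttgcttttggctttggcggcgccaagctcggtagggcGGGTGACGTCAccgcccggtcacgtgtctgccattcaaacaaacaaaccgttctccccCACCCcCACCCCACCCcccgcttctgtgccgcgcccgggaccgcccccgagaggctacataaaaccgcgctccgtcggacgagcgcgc
Klf2 (chr8:72318812-72319061, plus strand): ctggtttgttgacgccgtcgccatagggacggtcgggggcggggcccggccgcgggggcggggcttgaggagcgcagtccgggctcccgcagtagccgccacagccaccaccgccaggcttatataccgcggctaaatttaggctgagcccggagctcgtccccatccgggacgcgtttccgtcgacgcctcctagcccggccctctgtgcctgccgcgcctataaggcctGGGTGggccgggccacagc

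Promoter windows (250 bases before and 50 after the start) were searched for 8 of the 10 genes. Ier2 and Egr1 were not searched, so nothing is said here of their sites. A CACCC box on either strand lay in 6 of these 8, against 57.5% of all 32851 windows. A TATA box was found in 2 of the 8 genes, Fos and Junb (13.6% of all windows), and TGACGTCA in Dusp1 alone (1.79%). No window of these 8 held a CArG box, the serum response factor's site (1.63%), an AP-1 site TGANTCA (7.81%) or a heat shock element TTCNNGAA (8.52%). The window of Ier3 held no match to any of these motifs. Both strands were searched, and these are letter matches within a short window, not measured sites.

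Levels differed widely between the 12 probe sets, and since probe sets differ in brightness, each is followed across arrays and not set against another. By its mean over 8 arrays, the brighter Dnajb1 probe set stood at percentile 97.8 of all probe sets, and Dusp1, Egr1, Ier3 and Atf3 stood at 77.4, 76.3, 75.6 and 71.2. Fosb, Junb and the dimmer Jun probe set stood at percentiles 13.9, 15.4 and 17.2, and no detection calls were used that would place them above background. Fos varied most between arrays, with an SD over 8 arrays of 1.15 at percentile 99.4 of all probe sets, and Atf3 (0.72) and the dimmer Jun probe set (0.62) followed at percentiles 95.6 and 92.4. Fosb hardly varied (0.12, percentile 6.9).

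**Figure D1:**
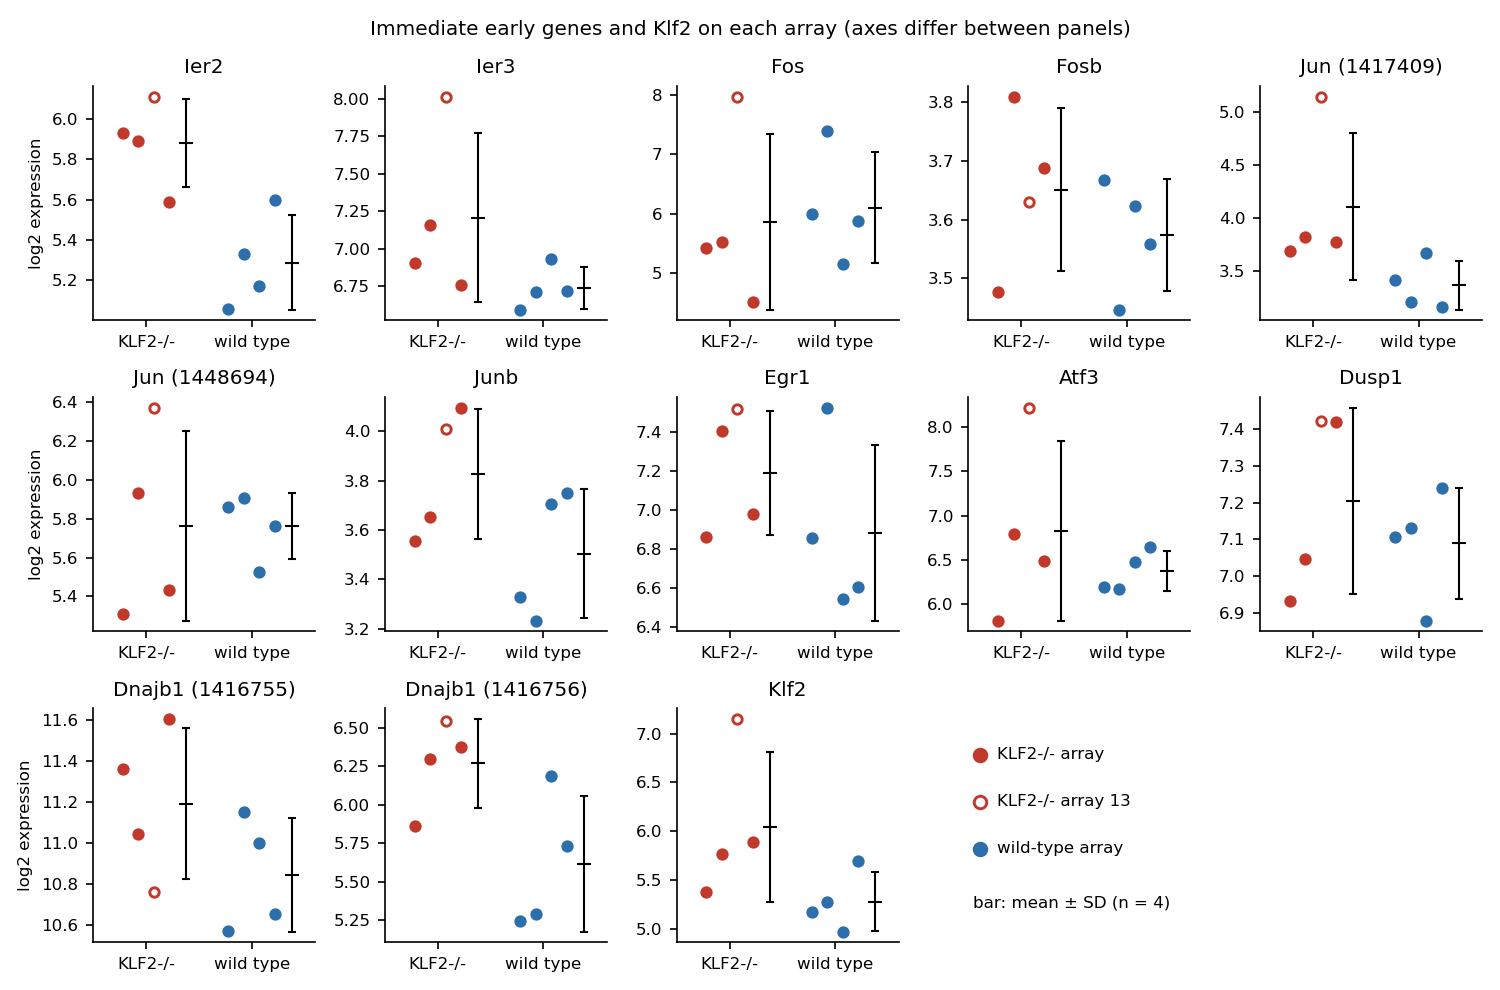
Log2 expression (y axis, scaled per panel) of each immediate early probe set and of Klf2 in KLF2-/- arrays (red, replicates 11 to 14 from left) and wild-type arrays (blue, replicates 3, 5, 7 and 9 from left), with mean ± SD (n = 4). KLF2-/- array 13, drawn open, is the highest array for Klf2 (7.15), Fos (7.97), Atf3 (8.22), Ier3 (8.02) and both Jun probe sets.

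The AP-1 genes did not share a pattern between genotypes. Fos, the inducible partner of Jun, measured 5.42, 5.53, 7.97 and 4.52 in KLF2-/- replicates 11 to 14, against 5.999, 7.39, 5.14 and 5.87 in wild-type replicates 3, 5, 7 and 9. One array of each genotype was high, and the lowest of all was KLF2-/- array 14. The groups overlapped, with a log2 difference (KLF2-/- minus wild type here and throughout) of -0.24 (SE 0.73, limma adjusted p = 0.977). The difference was -0.95 without KLF2-/- array 13 and 0.21 without KLF2-/- array 14, so no direction is drawn. Fosb, a close relative of Fos, lay between 3.48 and 3.81 in KLF2-/- arrays and between 3.45 and 3.67 in wild-type arrays, and differed by 0.08 (SE 0.12), and by 0.02 without KLF2-/- array 12 and 0.14 without KLF2-/- array 11.

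Jun, the main partner of Fos in AP-1, gave different answers by its 2 probe sets. The dimmer one measured 3.69, 3.82, 5.14 and 3.77 in KLF2-/- replicates 11 to 14, against 3.41, 3.21, 3.67 and 3.16 in wild-type replicates 3, 5, 7 and 9. All 4 KLF2-/- arrays exceeded all 4 wild-type arrays, by little at the closest (3.69 against 3.67), which was the only case among the 12 probe sets. The difference was 0.74 (SE 0.32, limma adjusted p = 0.860, exact permutation p = 0.0286, the smallest that 4 against 4 arrays can give), and 0.40 without KLF2-/- array 13. The brighter one measured 5.31, 5.93, 6.37 and 5.43 in KLF2-/- arrays, against 5.86, 5.91, 5.53 and 5.76 in wild-type arrays, and the groups did not differ in mean (difference -0.00, SE 0.23). The probe sets correlated at r = 0.539 over the 8 arrays and at -0.464 without KLF2-/- array 13, so their agreement rested on that array. Junb, an AP-1 subunit that can oppose Jun, ranged from 3.56 to 4.10 in KLF2-/- arrays and from 3.23 to 3.75 in wild-type arrays, and differed by 0.32 (SE 0.18, limma adjusted p = 0.860).

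Atf3, a stress-induced factor that dimerises with Jun proteins, was set apart by 1 array. It measured 5.81, 6.79, 8.22 and 6.49 in KLF2-/- replicates 11 to 14, against 6.20, 6.17, 6.48 and 6.64 in wild-type replicates 3, 5, 7 and 9. KLF2-/- array 13 exceeded every other array by 1.43, and KLF2-/- array 11 was the lowest of the 8. The difference of 0.46 (SE 0.44, limma adjusted p = 0.904) became -0.01 without KLF2-/- array 13. Egr1, a zinc finger factor, measured 6.86, 7.40, 7.51 and 6.98 in KLF2-/- arrays, against 6.85, 7.52, 6.54 and 6.602 in wild-type arrays. As for Fos, KLF2-/- array 13 and wild-type array 5 were the top 2 arrays, and the groups overlapped (0.31, SE 0.25, limma adjusted p = 0.888). The Egr1 difference was 0.20 without wild-type array 7 and 0.52 without wild-type array 5, its lowest and highest values with 1 array left out.

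Ier2, a nuclear protein gene used as a marker of recent stimulation, gave the smallest p of the 10 genes. It measured 5.93, 5.89, 6.11 and 5.59 in KLF2-/- replicates 11 to 14, against 5.06, 5.33, 5.17 and 5.60 in wild-type replicates 3, 5, 7 and 9. Only KLF2-/- array 14 and wild-type array 9 overlapped. The means of 5.88 ± 0.22 in KLF2-/- arrays and 5.29 ± 0.24 in wild-type arrays (SD, n = 4 each) differed by 0.59 (SE 0.16), or 1.51-fold. The unadjusted limma p of 0.00575 stood at rank 113 of 22626, the adjusted p was 0.860, and the exact permutation p was 0.0571. Leaving out 1 array at a time gave 0.52 to 0.70.

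Ier3, which encodes a stress-induced regulator of cell survival, measured 6.90, 7.16, 8.02 and 6.75 in KLF2-/- arrays, against 6.59, 6.71, 6.93 and 6.71 in wild-type arrays. KLF2-/- array 13 stood 0.86 above the next array, KLF2-/- array 12 was second, and wild-type array 7 was the only wild-type array to reach into the KLF2-/- values. The difference was 0.47 (SE 0.26, limma adjusted p = 0.860) on all arrays and 0.20 without KLF2-/- array 13.

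Dusp1, the phosphatase of the feedback loop, was among the steadiest. It measured 6.93, 7.05, 7.42 and 7.42 in KLF2-/- arrays, against 7.11, 7.13, 6.88 and 7.24 in wild-type arrays, and differed by 0.12 (SE 0.16, limma adjusted p = 0.936). With 1 array left out the difference ran from 0.04 (without KLF2-/- array 13) to 0.21 (without KLF2-/- array 11). Dnajb1, an Hsp40 co-chaperone induced by heat shock factor, was abundant by its brighter probe set, with 11.36, 11.05, 10.76 and 11.60 in KLF2-/- arrays, against 10.57, 11.15, 10.999 and 10.66 in wild-type arrays. Here KLF2-/- array 13 was the lowest of its group, unlike for the other genes, and the groups overlapped (0.35, SE 0.21, limma adjusted p = 0.860). The difference was 0.21 without KLF2-/- array 14 and 0.49 without KLF2-/- array 13. The dimmer probe set measured 5.86, 6.29, 6.54 and 6.38 in KLF2-/- arrays, against 5.25, 5.29, 6.19 and 5.73 in wild-type arrays. Only wild-type array 7 reached into the KLF2-/- values, and the difference was 0.65 (SE 0.24, unadjusted limma p = 0.0225, limma adjusted p = 0.860, exact permutation p = 0.0571).

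None of the 12 probe sets passed an adjusted p of 0.05 by limma, as was true of all probe sets on the array (0% of 22626 called). An unadjusted limma p under 0.05 with a higher KLF2-/- mean was found for 3 of the 12, Ier2, the dimmer Dnajb1 and the dimmer Jun probe sets, against 3.48% of all probe sets, and 0 of the 12 were lower at that limit, against 1.92%. Non-overlapping groups with KLF2-/- on top were found for 1 of the 12 and for 1.61% of all probe sets. With each gene read by its brightest probe set, 1 of 10, Ier2, was higher at that limit, against 428 of 12393 genes. Non-overlapping groups with KLF2-/- on top were then found for 0 of 10, against 192 of 12393. The KLF2-/- mean was higher at 10 of the 12, against 52.2% of all probe sets. Over the 10 genes, each by its brightest probe set, the median difference was 0.32, against 0.02 over all 12393 genes, and it was 0.14 without KLF2-/- array 13. The endothelial markers, cells known for Klf2 expression, were higher on average in KLF2-/- arrays at 15 of 18 genes (mean level 6.05 to 6.67, against 5.78 to 6.35 in wild type), and macrophage markers at 9 of 10. Their part in these values was not tested. These shares describe the list, and genes that vary together do not count as separate observations.

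**Figure D2:**
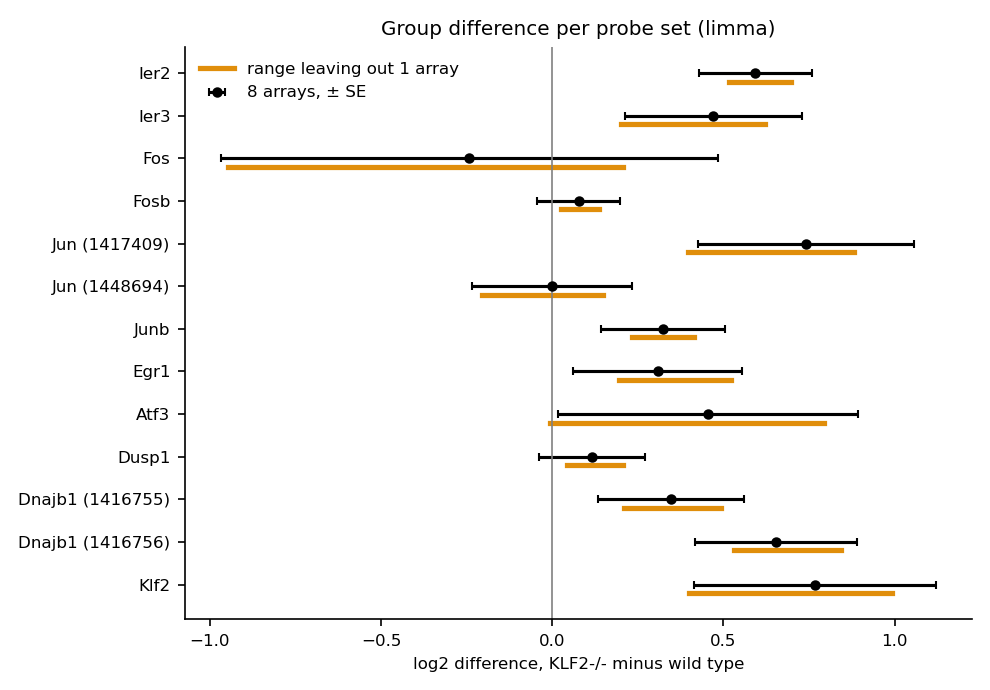
Log2 difference, KLF2-/- minus wild type (x axis), for each immediate early probe set and Klf2 (rows), with limma's SE (black) and the range when 1 array at a time was left out (orange). The range crosses 0 for Fos, Atf3 and the brighter Jun probe set, and stays above 0.5 for Ier2 and the dimmer Dnajb1 probe set.

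In the authors' deposited table, which gives each probe set a signed S-score, all 12 scores were positive, against 48.8% of all probe sets. The header states no direction, and the score correlated at r = 0.796 across all probe sets with the difference used here, and positive scores are taken on that basis to mean more signal in KLF2-/- arrays. The largest scores in the authors' deposited table were 2.78 for Ier3 (q = 0.211), 2.71 for Atf3 (q = 0.237) and 2.18 for Ier2 (q = 0.512). A q under 0.05 in the authors' deposited table was found for 0 of the 12 and for 0.968% of all probe sets. The authors' deposited scores of Fos (1.09) and the brighter Jun probe set (1.15) were opposite in sign to their log2 differences.

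Several members correlated with Klf2 from array to array, though none past adjustment over all probe sets. Klf2 measured 5.38, 5.77, 7.15 and 5.89 in KLF2-/- replicates 11 to 14, against 5.18, 5.28, 4.97 and 5.70 in wild-type replicates 3, 5, 7 and 9, and array 13 stood 1.26 above the next. Klf2 differed by 0.77 between genotypes (SE 0.35, limma adjusted p = 0.860), and by 0.40 without array 13. Over the 8 arrays Pearson's r with Klf2 was 0.896 for Atf3 (exact permutation p = 0.0178, adjusted over all probe sets 0.527), with Spearman's rho of 0.690 (exact permutation p = 0.0694, adjusted 0.848). It was 0.853 for Ier3 and 0.851 for the dimmer Jun probe set, with exact permutation p of 0.0433 and 0.0383. Their rho was 0.50 and 0.643, with exact permutation p of 0.216 and 0.0962. For Dusp1 r was 0.764 (rho 0.738, exact permutation p = 0.0128 and 0.0458) and for Ier2 0.755 (rho 0.762, exact permutation p = 0.0145 and 0.0368). Junb (0.665), the brighter Jun probe set (0.645), the dimmer Dnajb1 probe set (0.629), Egr1 (0.538) and Fos (0.503) came next, then Fosb (0.235) and the brighter Dnajb1 probe set (-0.105).

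Atf3 ranked 85th of 22625 probe sets by its r with Klf2, Ier3 185th and the dimmer Jun probe set 189th. The 12 values of r had a median of 0.655, against 0.04 over all other probe sets, and r was positive for 11 of 12, against 53.7%. An unadjusted exact permutation p under 0.05 with positive r was found for 5 of the 12 and for 3.83% of all probe sets, and 0 of either passed after adjustment over all 22625 (0%). By rho, in either direction, an unadjusted exact permutation p under 0.05 was found for 3 of the 12 and for 1309 of 22625 probe sets. The smallest adjusted p among the 12 was 0.495, for Dusp1. The genes and the comparison with Klf2 were chosen with earlier results of these data known, so these shares only describe the list.

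**Figure D3:**
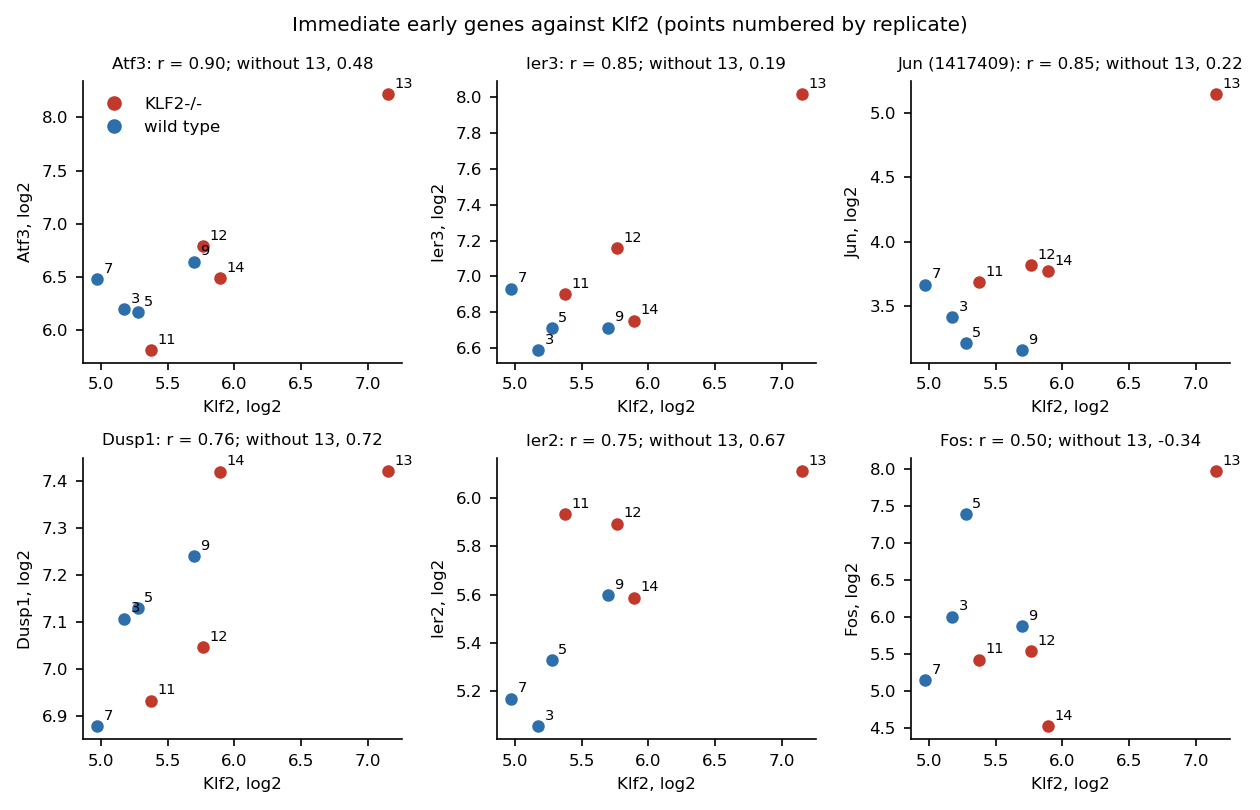
Log2 expression of 6 immediate early probe sets (y axis) against Klf2 (x axis) on each array, with KLF2-/- arrays in red and wild-type arrays in blue, numbered by replicate, and Pearson's r with and without KLF2-/- array 13. Array 13 lies alone at the upper right for Atf3, Ier3 and Jun. Over the other 7 arrays r was 0.719 for Dusp1 and 0.671 for Ier2. From KLF2-/- array 11 to 12 to 14, Klf2 rose (5.38, 5.77 and 5.89) and so did Dusp1 (6.93, 7.05 and 7.42). Ier2 fell over the same arrays (5.93, 5.89 and 5.59).

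The relation rested on KLF2-/- array 13 more for some genes than for others. Without it, r with Klf2 was 0.192 for Ier3, 0.216 for the dimmer Jun probe set, 0.00 for the brighter one and -0.342 for Fos. It remained 0.719 for Dusp1 (exact permutation p = 0.0659), 0.671 for Ier2 (exact permutation p = 0.108), 0.621 for Junb (exact permutation p = 0.137) and 0.477 for Atf3 (exact permutation p = 0.279). The median r was 0.371, and 0 of the 12 had an unadjusted p under 0.05. With the 2 arrays farthest from the median of Klf2 left out (KLF2-/- 13 and wild-type 7), r over the other 6 was 0.910 for Junb and 0.899 for the dimmer Dnajb1 probe set (exact permutation p = 0.00972 and 0.0194, adjusted 0.618 and 0.670). It was 0.577 for Dusp1, 0.565 for Ier2, 0.731 for Atf3, 0.463 for Ier3, 0.458 for the dimmer Jun probe set and -0.678 for Fos.

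**Figure D4:**
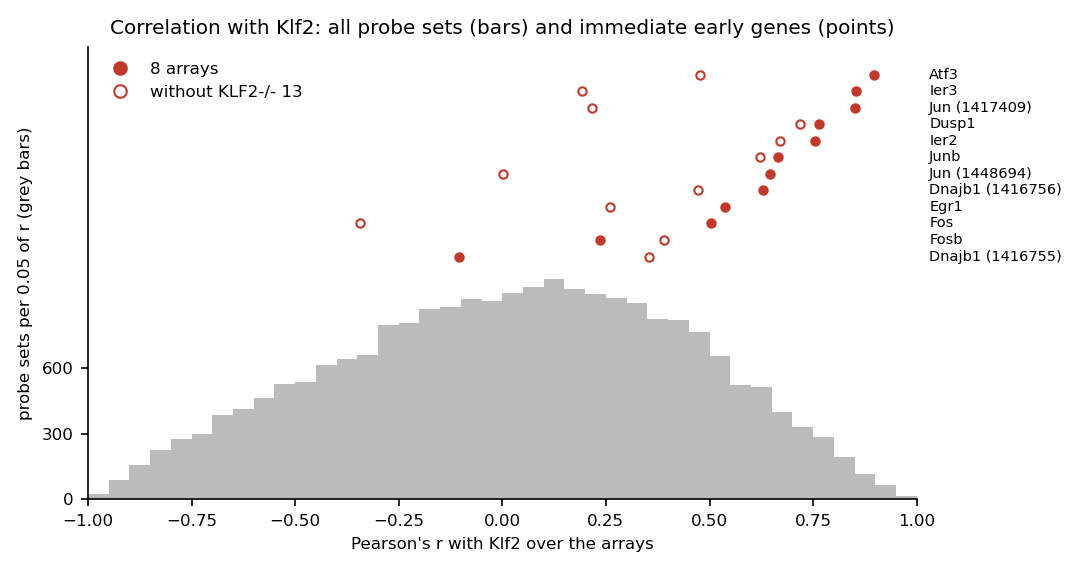
Pearson's r with Klf2 (x axis) for all other probe sets (grey bars, number per bin of 0.05) and for the immediate early probe sets (points, 1 row each; their height has no scale). Filled points use 8 arrays and open points leave out KLF2-/- array 13; the filled median of 0.655 lies right of the grey centre at 0.04, and the open median is 0.371.

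A further fit held genotype as a term, so that arrays were compared within their group. In it Atf3 differed by 1.16 (SE 0.20) per log2 unit of Klf2, with an unadjusted limma p of 0.000404 (rank 22 of 22625) and a limma adjusted p of 0.336. The slope was 1.53 (SE 0.53) for Fos, 0.67 (SE 0.23) and 0.51 (SE 0.17) for the Jun probe sets and 0.55 (SE 0.19) for Ier3, each at a limma adjusted p of 0.444 to 0.465. For Dusp1, Ier2 and Junb it was 0.27 (SE 0.13), 0.22 (SE 0.15) and 0.22 (SE 0.17), at unadjusted limma p of 0.0725, 0.186 and 0.242. Slopes were positive for 11 of 12, against 53.2% of all probe sets, and the brighter Dnajb1 probe set had -0.35 (SE 0.19). A positive slope with an unadjusted limma p under 0.05 was found for 5 of the 12, against 3.26% of all probe sets, and 0 passed adjustment (0% of 22625 called). Without KLF2-/- array 13 none of the 12 kept an unadjusted p under 0.05. The slope was then 0.78 for Atf3, 0.33 for the brighter Jun probe set and 0.05 for Fos. It was -0.15 for Ier3 and -0.36 for the dimmer Jun probe set.

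KLF2-/- array 13 was the highest of the 8 arrays for 8 of the 12 probe sets, where it was the highest for 13.4% of all 22626 probe sets. The genes were chosen with earlier results of these data known, so this share only describes the list. Averaged over the 10 genes, deviations from each gene's mean were -0.18, 0.09, 0.66 and -0.08 in KLF2-/- replicates 11 to 14, against -0.21, 0.06, -0.24 and -0.10 in wild-type replicates 3, 5, 7 and 9. Array 13 stood far above the rest, array 12 lay just above the highest wild-type array, and arrays 11 and 14 lay within the wild-type range. Pairs of the 10 genes correlated positively in 37 of 45 cases with a median r of 0.355, and in 30 of 45 with a median of 0.159 without array 13. The highest pair values were 0.894 for Atf3 with Ier3 and 0.834 for Jun with Fos, which were 0.355 and 0.664 without that array. That array also had the marker means given above, the lowest erythroid mean and the highest visceral endoderm and macrophage means. The endothelial mean and the mesenchyme and mesothelium mean were highest on array 12. The part of these markers' cells in the values was not tested.

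Other genes of the response were read from lists. Of 47 other immediate early genes 45 were measured, 30 higher and 15 lower in KLF2-/- arrays with a median difference of 0.15, against 53.4% of all genes higher and a median of 0.02. Without KLF2-/- array 13 the median was 0.06. None passed by limma, and at an unadjusted limma p under 0.05 there were 2 higher and 1 lower of the 45, against 428 higher and 205 lower of all 12393 genes. Those of smallest p were Sgk1, a serum- and glucocorticoid-induced kinase gene (-1.15, SE 0.42), the clock gene Per1 (0.35, SE 0.14), the small GTPase gene Rhob (0.94, SE 0.40) and the Notch target Hes1 (0.49, SE 0.22), all at a limma adjusted p of 0.860. Sgk1 measured 6.63, 6.80, 5.69 and 5.87 in KLF2-/- arrays, against 7.40, 8.55, 6.59 and 7.02 in wild-type arrays, and overlapped between the groups. Per1, with 5.005 to 5.35 in KLF2-/- arrays and 4.65 to 4.96 in wild-type arrays, was the 1 gene of this list whose groups did not overlap, which was found with KLF2-/- on top for 192 of all 12393 genes.

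Array 13 was the highest of 8 for 17 of these 45 genes (37.8%), against 14.4% of all genes. The genes with the largest excess there were picked after their values were seen. Gadd45b, a stress-induced growth arrest gene, reached 8.01 on it, against 4.80 to 5.53 on the other 7 arrays. Maff, a small bZIP factor gene, reached 6.98 (4.94 to 5.54 on the others), and Nfkbia, the feedback inhibitor of NF-kappaB, 10.96 (9.01 to 9.68 on the others).

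The signalling genes upstream did not share this. Of 32 listed, 23 were measured, with 13 higher, 10 lower and a median difference of 0.00, and array 13 was the highest for 1 of them (4.35%). Smallest p belonged to Elk4, a serum response factor partner (-0.60, SE 0.23), the adaptor gene Grb2 (0.91, SE 0.36), Srf itself (0.25, SE 0.14) and Atf2 (-0.32, SE 0.25), at limma adjusted p of 0.860 to 0.887. Elk4 was lowest on array 13, at 6.16, against 6.81 to 6.90 in the other KLF2-/- arrays and 6.89 to 7.74 in wild-type arrays.

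Heat shock genes (16 of 18 measured) had a median difference of 0.11 (0.05 without array 13), with 10 higher and 6 lower and 0 at an unadjusted limma p under 0.05. Dnajb6 (0.22), Bag3 (0.26), Hspd1 (0.20) and Hspa1a (0.77, SE 0.92) were those of smallest p, at limma adjusted p of 0.890 to 0.928. Hspa1a, an inducible Hsp70 gene, measured 4.05, 4.98, 8.37 and 4.35 in KLF2-/- replicates 11 to 14, against 6.17, 4.14, 4.20 and 4.13 in wild-type replicates 3, 5, 7 and 9. Array 13 was 2.20 above the next array, wild-type array 3. Its near-identical copy Hspa1b, whose signal probe sets may not separate, was highest there too (9.05, against 4.26 to 7.996 on the others). Related bZIP factors (14 of 15 measured) had a median difference of 0.17, with 11 higher and 3 lower, and none at an unadjusted limma p under 0.05. They were led by Atf5 (0.25), Nfe2l2 (0.24), Jdp2 (0.51) and Batf3 (0.19), at limma adjusted p of 0.869 to 0.894.

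**Figure D5:**
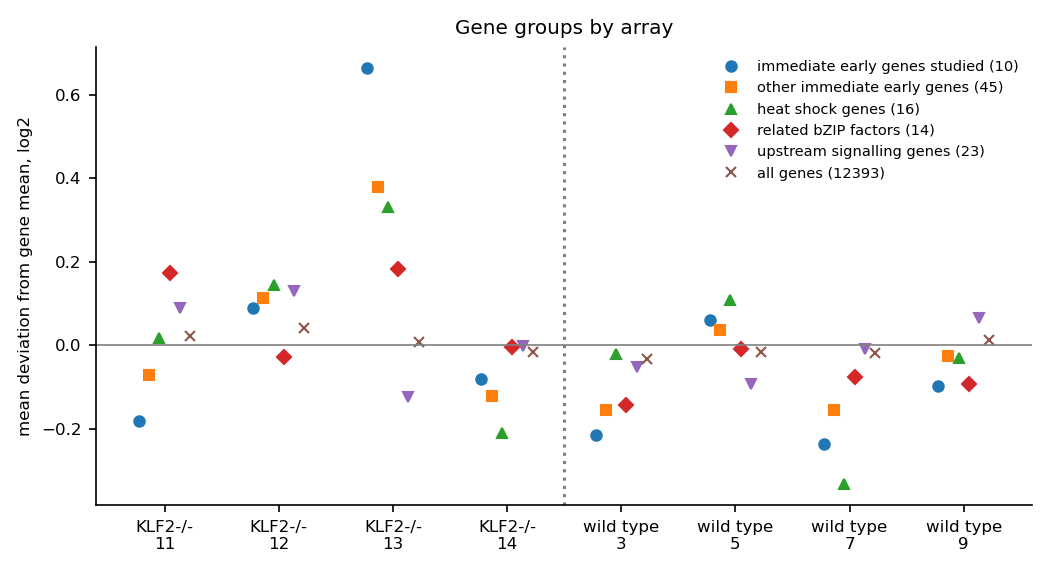
Mean deviation from each gene's mean over 8 arrays (log2, y axis) for the 10 immediate early genes and for the other gene lists (number of genes in brackets) on each array (x axis, KLF2-/- left of the dotted line, wild type right). The immediate early genes reach 0.66 on KLF2-/- array 13 and the other immediate early genes 0.38, while the upstream signalling genes are at -0.12.

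Among genes with a mean at or above the median of all genes, the 6 whose values were most like the mean profile of the 10 genes over the 8 arrays were Tnip1 (r = 0.976), Pls1 (0.955), Nfkbia (0.953), Slc44a4 (0.952), Npc2 (0.946) and Foxo1 (0.939). Without array 13 the values were 0.654 to 0.911, highest for Tnip1. The 6 most like Klf2 were Ngdn (0.967), Stard4 (0.958), Pam16 (0.956), Mdm2 (0.954), Pxmp4 (0.947) and Egln3 (0.932), and no gene was in both sets. Klf2 and the mean profile correlated at 0.911, and at 0.542 without array 13.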

How the data were processed

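The authors deposited log2 expression values, 1 per probe set and array, and per the submitters' processing notes GCOS, RMA and affy were used, with no version or order given. The authors also deposited a signed score, a p-value and a q-value per probe set, by a method that the sources used here do not state.

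Values were used as deposited. Of 22626 probe sets, 20380 had 1 gene symbol in the platform annotation, 691 several and 1555 none. In counts of genes the probe set of highest mean stood for the gene, except that every member probe set is reported. Genotypes were tested in R 4.3.3 by limma 3.58.1 (lmFit, eBayes, Benjamini-Hochberg over all probe sets, 4 arrays against 4, no covariate), and slopes on Klf2 with genotype as a further term. Correlations used all 40320 orders of the 8 arrays (Python 3.11.15, two-sided, by the size of r), adjusted over 22625 probe sets. Single values used the exact two-sided permutation test, whose smallest p for 4 against 4 is 0.0286. An adjusted p under 0.05 counted as a call. The number of arrays limits the precision. The fits were tested on simulated data. The 10 members, the gene lists and the tests were chosen with earlier results of these data known. Replicates are biological by the labels, and each is a pool. Named genes were all members, the 4 of smallest p per list and the 6 of highest likeness. The alternatives were quantile normalisation, median centring, a filter on dim probe sets, trend and robust fitting, array weights, probe set averaging and leaving out arrays. Cell type markers served to check the captures. Promoters are RefSeq's, build GRCm38.p6.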

Additional observations from a re-analysis of the deposited data

Results flagged for a closer look

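Of 82 groups of 4 arrays (41 probe sets named in the text), 8 held an array far from the other 3 by Dixon's test. The test's rate of about 1 of 20 groups holds only for groups chosen without their values. Many of these probe sets were picked by smallest p, or by likeness to profiles that were highest on array 13. The counts are therefore not set against that rate. Of the 8, 3 were KLF2-/- array 13. The dimmer Jun probe set was at 5.14 on that array, with the next of its group at 3.82. Egln3 was at 7.197 there (next 6.27), and Elk4 was lowest there, at 6.16 (next 6.81). Hspa1a was at 6.17 in wild-type array 3 (next 4.20) and Hes1 at 5.80 in wild-type array 9 (next 5.03). Wild-type array 5 was highest of its group for Pls1 at 7.10 (next 6.29) and for Slc44a4 at 5.79 (next 5.59). Batf3 was lowest in KLF2-/- array 12, at 4.61 (next 4.98).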

How the results depend on the processing

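No paired analysis was possible because the groups share no replicate number. The count of members called between genotypes was 0 under every alternative run. The count of the 12 probe sets at an unadjusted limma p under 0.05 was 1 to 4 with 1 array left out (3 on all arrays), 1 without wild-type arrays 3 and 5 and 1 without KLF2-/- arrays 13 and 14. Over all probe sets that count was 1222, and it was 592 with dim probe sets left out, 2544 with array weights, 425 and 3056 without those pairs of arrays, and 637 to 1962 with 1 array left out. The members' median difference was 0.14 to 0.35 with 1 array left out and 0.08 without KLF2-/- arrays 13 and 14. Direction changed for Fos (0.35) and the brighter Jun probe set (0.12) without wild-type arrays 3 and 5, for Atf3 (-0.0697) and Dusp1 (-0.10) without KLF2-/- arrays 13 and 14, and for Jun averaged over its probe sets (0.37). With 1 array left out, Fos ran from -0.95 to 0.21, the brighter Jun probe set from -0.21 to 0.15 and Atf3 from -0.00764 to 0.79. The causes were not tested.

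For r with Klf2, the median was 0.371 to 0.744 with 1 array left out, and the count at an unadjusted p under 0.05 was 0 to 5, 3 with quantile normalisation and 2 without the 2 arrays farthest from the median of Klf2. Without those 2, r turned for Fos (-0.678), the brighter Jun probe set (-0.214), Egr1 (-0.0758) and the brighter Dnajb1 probe set (0.398). Fosb turned to -0.0116 with median centring. With 1 array left out, r ran from -0.342 to 0.729 for Fos and from -0.308 to 0.354 for the brighter Dnajb1 probe set. The slope of Fosb on Klf2 turned to -0.0505 with quantile normalisation and ran from -0.10 to 0.10 with 1 array left out. Slopes ran from -0.15 to 0.63 for Ier3 and from -0.36 to 0.82 for the dimmer Jun probe set. The count of slopes at an unadjusted p under 0.05 was 0 to 6 with 1 array left out. With array weights 10 slopes passed both with and without adjustment, and so did 41.03% of all probe sets after adjustment. The estimate of these weights did not converge, and KLF2-/- array 13 had a weight of 47.5 against 0.22 to 1.61 for the others.

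The filter on dim probe sets left out Fosb, Junb and the dimmer Jun probe set, which so have no value there.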
